A study of Rattus norvegicus with 12 samples.

Results

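Gene expression of endothelial cells (ECs) of the rat aorta was compared between the term fetus and the newborn. Members of the comparison were all probe sets of the array that carry 1 gene symbol and whose mean log2 signal over the 12 arrays of the study reached that of the bacterial lys spike, a control RNA with a mean of 4.44. Of 26468 probe sets, 15359 carry 1 symbol, and 11951 of these, for 11268 distinct symbols, reached the spike. Tests and adjusted p-values were computed over 18690 probe sets that reached it with or without a symbol. The symbols next above the limit were Zic4 and Spmip3, with N minus F differences of 0.00 and -0.10 on the log2 scale, and those next below it were Dab1 and Taar7b, at 0.02 and -0.43.

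The study measured ECs of the aorta and of the ductus arteriosus (DA), the fetal shunt between pulmonary artery and aorta, in Wistar rats. Both groups came from fetuses of day 21 of gestation, and both were delivered by cesarean section. The fetal group (F) was taken before breathing and the neonatal group (N) 30 minutes after birth. There were 4 groups of 3 arrays, and the 6 aortic arrays carry this comparison. Vessels pooled from many litters were digested with collagenase and dispase, dead cells were removed, and CD31-positive, CD45-negative cells were sorted, with no genotype or drug in any group. A replicate is therefore a pool, and its p-values measure the spread between pools. Arrays of the same replicate number deviated together from their group means, so values with the replicate number fitted as a block are given where they alter a call. In the aorta this was weak for replicate 2, with r of 0.10, beside 0.80 and 0.63 for replicates 1 and 3. The F array of replicate 2 had a higher r, 0.37, with the N array of replicate 3. The medians of the 12 arrays ran from 5.63 to 5.76, and the lys signal, 3.53 to 4.53 in aortic F and 3.47 to 5.18 in aortic N, was highest in replicate 1 and lowest in replicate 3 of both. The part of this in the results was not tested.

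In the fetus the descending aorta is filled largely through the DA, and after birth the left ventricle comes to supply it alone, with blood that gains oxygen as the lungs fill with air. Delivery also brings a surge of catecholamines and glucocorticoids, though the study reports no hormone levels for these animals, delivered by cesarean section. Catecholamines act in part on Gs-coupled receptors that raise cyclic AMP, which through protein kinase A and the factor CREB induces genes such as Sik1 and Crem. Glucocorticoids act through a nuclear receptor that induces genes such as Fkbp5, Zbtb16 and Tsc22d3. Endothelium also senses flow, which maintains the transcription factors Klf2 and Klf4, and it displays adhesion molecules such as Sele and Vcam1 when activated by cytokines.

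Promoters of the genes that stood out are shown here because several are textbook targets of cyclic AMP. The sequences are the 250 bases before a transcription start in RefSeq on the build GRCr8, written 5′ to 3′ on the strand of the gene. Capitals mark TGACG, the core of the cyclic AMP response element, on either strand, or the whole element TGACGTCA, which contains that core on both strands. In the last of the Crem windows, capitals also mark 1 match to ACGTG, the hypoxia core, on the reverse strand. The Sik1 window lies at chr20:9958647-9958896 on the minus strand, the downstream Crem windows at chr17:58984547-58984796 and chr17:58985240-58985489 on the plus strand, and the Arrdc3 window at chr2:12872952-12873201 on the plus strand.
Sik1: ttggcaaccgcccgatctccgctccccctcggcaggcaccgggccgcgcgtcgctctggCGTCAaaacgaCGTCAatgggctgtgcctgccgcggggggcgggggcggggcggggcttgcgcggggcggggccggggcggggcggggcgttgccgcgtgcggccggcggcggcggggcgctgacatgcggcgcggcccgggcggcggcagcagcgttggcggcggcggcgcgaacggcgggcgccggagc
Crem, middle window: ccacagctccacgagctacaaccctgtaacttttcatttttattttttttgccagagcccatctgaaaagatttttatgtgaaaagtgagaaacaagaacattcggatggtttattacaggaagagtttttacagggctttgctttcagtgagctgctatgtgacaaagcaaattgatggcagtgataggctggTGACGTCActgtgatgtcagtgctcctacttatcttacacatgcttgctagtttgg
Crem, last window: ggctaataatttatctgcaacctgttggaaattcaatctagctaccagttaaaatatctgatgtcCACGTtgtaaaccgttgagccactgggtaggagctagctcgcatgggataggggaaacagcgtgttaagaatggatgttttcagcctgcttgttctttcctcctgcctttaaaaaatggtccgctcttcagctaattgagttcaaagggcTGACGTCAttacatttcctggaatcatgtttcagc
Arrdc3: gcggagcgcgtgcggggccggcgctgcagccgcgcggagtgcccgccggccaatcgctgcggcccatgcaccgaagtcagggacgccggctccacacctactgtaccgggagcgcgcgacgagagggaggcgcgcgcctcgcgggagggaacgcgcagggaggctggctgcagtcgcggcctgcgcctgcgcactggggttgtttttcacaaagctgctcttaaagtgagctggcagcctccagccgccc
The Sik1 window holds 2 core matches, 191 and 180 bases before the start. Each of these Crem windows holds 1 whole element, 56 and 35 bases before its start, and a further Crem window upstream holds 2 core matches. The Arrdc3 window holds none of the motifs searched, which says only that these letters are not in it. Of 33469 promoters in the table, 1.59% hold the whole element, 18.2% the core TGACG, 5.59% the E box CACGTG, which contains ACGTG, and 16.6% the hypoxia core ACGTG, both strands read. Of the 24 genes named for size below, 19 have a promoter in the table. Among these 6 hold the core TGACG, 1 the whole element, 1 the E box and 5 the hypoxia core. Those with the core are Sik1 and Crem, higher in N, and Nmnat1, Hus1b, Rnf113a2 and Stx6, lower in N. A gene with several windows was counted if any window held the motif, whereas the shares above are of single promoters. A match is a description of letters and not a site of binding.

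No member was called between N and F in the fit without the block. Limma called 0 of 11951 members at an adjusted p under 0.05 (0% of all probe sets tested, smallest adjusted p = 0.464), with 257 probe sets at an unadjusted p under 0.05, and the t-test of the study's methods called 0 after Benjamini-Hochberg adjustment. Differences were small, with a standard deviation of 0.12 on the log2 scale over the members, a 5th percentile of -0.18 and a 95th of 0.22, and 0 members differed by 2-fold. Of the 11951 members, 101 were higher in N and 23 lower at an unadjusted p under 0.05, or 124 in either direction. Over all probe sets tested the shares were larger than those of the members, at 1.09% and 0.289%, or 1.38% in either direction. With the replicate number as a block these counts were 275 and 155, against 2.88% and 1.51%, or 430 in either direction against 4.4%. That fit called 2 members, Tbc1d30 and Arrdc3, both higher in N, and 1 probe set with no symbol (0.0161% of those tested). If no probe set differed, a larger share than 1.38% or 4.4% would be expected at an unadjusted threshold of 0.05. A p of this kind alone is thus no evidence that a gene changed.

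All 3 N arrays lay above all 3 F arrays for 325 of the 11951 members and below them for 179. Over the 18690 probe sets tested these counts were 548 (2.93%) and 273 (1.46%). If the 6 aortic arrays were in random order, a larger share than either would be separated in each direction. Separation alone is thus no evidence that a gene changed. The balance of the directions depended on the scaling and on the array weights. With arrays centred on their medians the split of separated members was 250 higher and 292 lower, and with quantile normalization it was 347 and 263. For members at an unadjusted p under 0.05 the split of 101 to 23 was 77 to 43 after centring, 103 to 59 after quantile normalization and 148 to 79 by the t-test of the methods. Array weights turned the balance, at 348 to 472. Without the F array of replicate 1 the split was 142 to 96, and without the N array of replicate 1 it was 124 to 61. Of the arrays left out singly, F replicate 2 and F replicate 3 moved the upward count by over 1.5 times too, to 154 and 67. The balance also varied with signal. Of 3524 members with a mean log2 signal under 6, 3.43% were separated upward and 1.11% downward, while of 929 members at 10 and over the shares were 1.94% and 2.58%. Of the 101 members higher in N, 44 had a mean signal under 6.

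**Figure D1:**
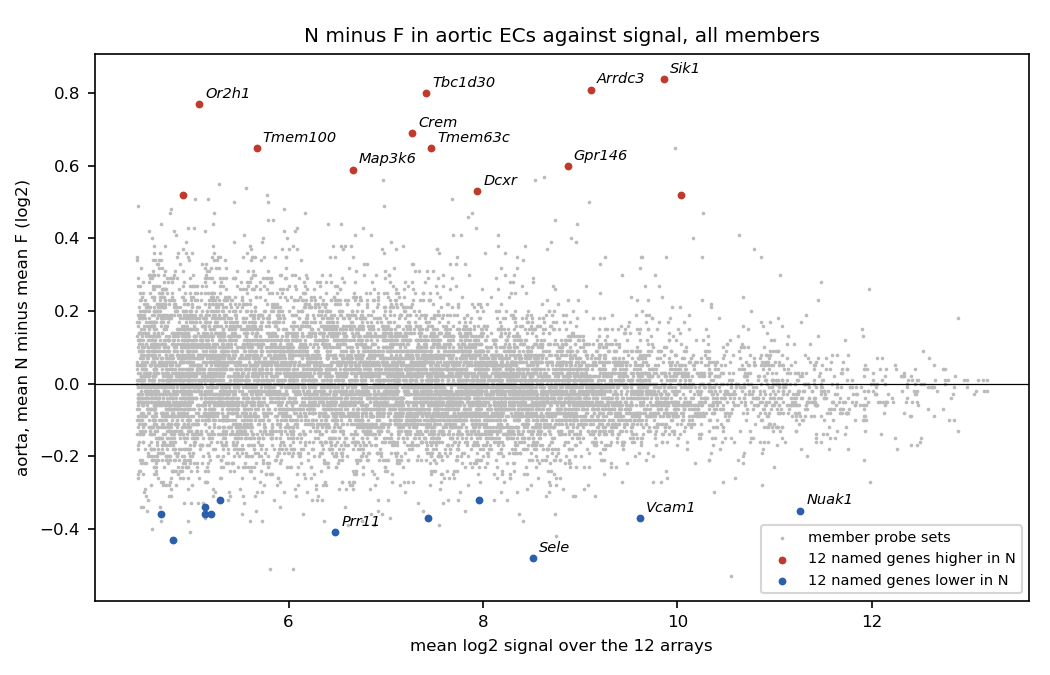
Each point is 1 member probe set, with its mean log2 signal over the 12 arrays on the horizontal axis and the aortic N minus F difference on the vertical axis (log2). Red and blue points are the 12 named genes with the largest differences upward and downward, led by Sik1 at 0.84 and by Sele at -0.48, and grey points farther from 0 than some of these have groups that overlap or an unadjusted p of 0.05 or more.

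Sik1, a salt-inducible kinase that restrains the coactivators of CREB, had the largest difference of all members. Its log2 signals in F were 9.56, 9.71 and 9.64, and in N 10.40, 10.50 and 10.51. The lowest N array thus stood well above the highest F array, and the 3 arrays of a group lay close together. The difference was 0.84 (standard error 0.13), a fold of 1.78, with a 95% interval of 0.55 to 1.12 and a limma adjusted p of 0.464 without and 0.0836 with the block. Crem, whose products include repressors of cyclic AMP-driven transcription, had signals of 7.18, 6.80 and 6.68 in F and 7.90, 7.58 and 7.26 in N. Its groups were separated by a narrow gap, and the 3 same-number differences were 0.72, 0.79 and 0.58. The difference was 0.69 (standard error 0.22), with an adjusted p of 1 without and 0.0836 with the block (limma).

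Other cyclic AMP-responsive genes stood higher in N with smaller or less even differences. Pde4b, a phosphodiesterase that degrades cyclic AMP, had signals of 8.10, 8.16 and 7.74 in F and 8.37, 8.43 and 8.27 in N, a difference of 0.36 (95% interval 0.06 to 0.66), or 0.23 without the F array of replicate 3. Rgs2, a regulator of G protein signalling, had signals of 8.83, 8.08 and 8.17 in F and 9.18, 8.97 and 8.62 in N. Its difference was 0.56 (95% interval 0.05 to 1.07), and the groups overlapped. Pkia, an inhibitor of protein kinase A, had 5.28, 5.18 and 4.39 in F and 5.61, 5.43 and 5.32 in N, a difference of 0.50 (95% interval -0.10 to 1.11) in which the F array of replicate 3 lay far below the others. Of 23 genes of the list tested, 4 had an unadjusted p under 0.05, all 4 higher in N, against 1.09% of all probe sets, 0 were called, and 19 differences were above 0 and 4 below. This list, like the other gene lists, was written with earlier results of these data known. The study itself lists Sik1 among genes that changed between the stages in the DA. Such counts describe the lists and are no independent evidence for a pathway. The median of the list was 0.07, beside -0.00 over all members. Some known cyclic AMP targets did not stand out without the block. Nr4a1, an orphan nuclear receptor, stood at 0.16 (95% interval -0.15 to 0.47), and Per1, a clock gene, at 0.30 (-0.14 to 0.74). With the block 6 genes of the list had an unadjusted p under 0.05, all higher in N, against 2.88% of all probe sets. Per1 was among them and Nr4a1 was not. Of 12 adrenergic, adenosine, prostanoid and related receptor genes tested, 0 had an unadjusted p under 0.05, and their differences ran from -0.15 to 0.09.

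Arrdc3, an alpha-arrestin that takes part in the ubiquitination of membrane receptors, rose in N in the fit with the block. Its signals in F were 8.94, 8.46 and 8.40, and in N 9.68, 9.46 and 9.11. Every N array lay above every F array, and in both groups the array of replicate 1 was the highest. The difference was 0.81, a fold of 1.76, with a standard error of 0.20 without and 0.10 with the block, and limma gave an adjusted p of 1 without and 0.0353 with the block. The related Txnip, which binds thioredoxin and limits glucose uptake, had signals of 10.12, 10.23 and 10.02 in F and 10.59, 10.71 and 10.46 in N. That is a difference of 0.47 (95% interval 0.19 to 0.74, adjusted p = 1, 0.266 with the block), with no overlap. Arrdc4, its closest relative, stood at 0.26 (95% interval 0.02 to 0.50), again without overlap. The other alpha-arrestins and the beta-arrestins had differences near 0, namely 0.08 for Arrdc1, -0.08 for Arrdc2, 0.04 for Arrdc5, -0.06 for Arrb1 and -0.09 for Arrb2. Of the 8 genes in this list, 3 had an unadjusted p under 0.05, all higher in N, against 1.09% of all probe sets. The study had already named Arrdc3 as changed between the stages, and the list was written with earlier results known. The count is therefore no independent evidence.

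Tbc1d30, a TBC-domain protein of the family that activates the GTPase of Rab proteins, rose in N in the fit with the block. Its signals in F were 7.53, 7.45 and 7.33, and in N 8.29, 8.27 and 8.13. The groups were far apart compared with the spread inside them, and the same-number differences were 0.76, 0.82 and 0.81. The difference was 0.80 (standard error 0.13), a fold of 1.74, with a 95% interval of 0.51 to 1.08 and a limma adjusted p of 0.464 without and 0.0254 with the block. Leaving any 1 replicate number out of all groups ended both calls with the block. The adjusted p was then 0.253 to 0.825 for Tbc1d30 and 0.253 to 0.94 for Arrdc3, in fits of 8 arrays. With the 6 aortic arrays alone and the block it was 0.0765 and 0.123. Of 26 TBC-domain genes tested, Tbc1d30 and Sgsm3, at 0.33 (95% interval 0.06 to 0.61), had an unadjusted p under 0.05. Both were higher in N, against 1.09% of all probe sets, and the median of the list was 0.03. The study had already named Tbc1d30 as changed between the stages, and this list too was written with earlier results known. Its count is therefore no independent evidence.

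**Figure D2:**
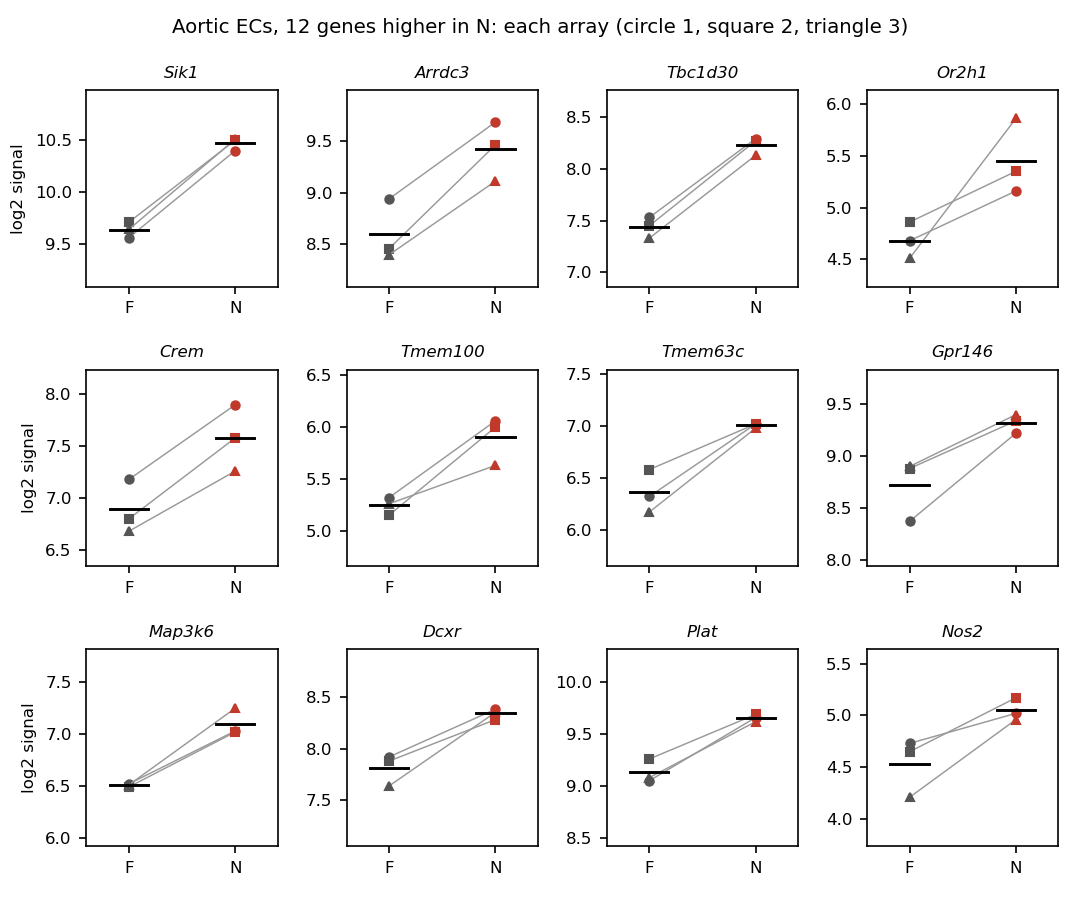
Log2 signal of each aortic array (vertical axis, the same span in every panel) in F and N for the 12 named genes higher in N. Points are arrays, grey lines join arrays of the same replicate number and black bars are group means, and in every panel the lowest N array lies above the highest F array.

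The remaining genes among the 12 largest differences upward include endothelial and membrane proteins. Plat, tissue plasminogen activator, which endothelium releases to dissolve fibrin, had signals of 9.05, 9.26 and 9.08 in F and 9.66, 9.69 and 9.62 in N. The N arrays were nearly equal, and the difference was 0.52 (standard error 0.12, 95% interval 0.27 to 0.78, adjusted p = 1, 0.257 with the block). Map3k6, a kinase of the MAP kinase cascade, had 6.52, 6.49 and 6.51 in F and 7.03, 7.02 and 7.25 in N, a difference of 0.59 (95% interval 0.33 to 0.86). Tmem100, a membrane protein of arterial endothelium induced by BMP9 and BMP10, stood at 0.65 (95% interval 0.22 to 1.09), on signals of 5.15 to 5.32 in F and 5.63 to 6.06 in N. Tmem63c, of a family of mechanically gated channels, had 6.32, 6.58 and 6.17 in F and 7.02, 7.02 and 6.98 in N, a difference of 0.65. Gpr146, an orphan receptor, stood at 0.60, and Dcxr, a carbonyl reductase, at 0.53. Nos2, the inducible nitric oxide synthase, at 0.52, and the olfactory receptor Or2h1, at 0.77, were dim, and each was below the lys signal of its own array on 1 of 6 aortic arrays. None of these was called with or without the block.

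Downward differences were smaller, and none was called. Sele, E-selectin, which slows leukocytes on activated endothelium, had signals of 9.00, 8.96 and 8.44 in F and 8.42, 8.09 and 8.44 in N. One F array and one N array were equal to the second decimal, so the groups only just failed to overlap, and the difference was -0.48 (standard error 0.19, 95% interval -0.90 to -0.07). Vcam1, which holds leukocytes firmly, had 10.54, 10.66 and 10.45 in F and 10.09, 10.04 and 10.42 in N, a difference of -0.37 (95% interval -0.66 to -0.08), with the arrays of replicate 3 close together. Of 31 genes of cytokines and leukocyte adhesion, 2 had an unadjusted p under 0.05, both lower in N, against 0.289% of all probe sets. In this list 4 were separated downward and 1 upward, against 1.46% and 2.93%. Separated downward as well were Cxcl1, a neutrophil chemokine, at -0.19, and Nfkbiz, an inhibitor of NF-kB family, at -0.16, and separated upward was the endotoxin receptor Tlr4 at 0.35. Icam1, another adhesion molecule, stood at -0.09 (95% interval -0.37 to 0.20).

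The other genes among the 12 largest downward differences are in none of the gene lists. Prr11, a protein of the dividing cell, had signals of 6.36, 6.51 and 6.27 in F and 6.09, 5.80 and 6.02 in N, a difference of -0.41 (95% interval -0.69 to -0.13). Nuak1, a kinase related to AMPK that acts on myosin phosphatase, had 11.28, 11.52 and 11.57 in F and 11.05, 11.02 and 11.24 in N, a difference of -0.35 (95% interval -0.61 to -0.10). It was the brightest of the 12, and its groups were separated by a narrow gap. Nmnat1, which makes NAD in the nucleus, stood at -0.37 and Stx6, a SNARE protein of the trans-Golgi, at -0.32. Stac3, Hus1b, Mterf2, Insl6, Rnf113a2 and Nrip3, at -0.43 to -0.32, had mean signals under 6. The cell cycle list had a median of -0.08, with 21 of 33 differences below 0, and Cdc20, an activator of the anaphase-promoting complex, stood lower at -0.28 (95% interval -0.54 to -0.03). Phlda3, a p53 target that restrains Akt, was the gene of the growth arrest list with an unadjusted p under 0.05, at -0.30 (95% interval -0.57 to -0.02). Cdkn1a, the cell cycle inhibitor p21, had the opposite direction at 0.32 (95% interval -0.02 to 0.66), with no overlap.

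**Figure D3:**
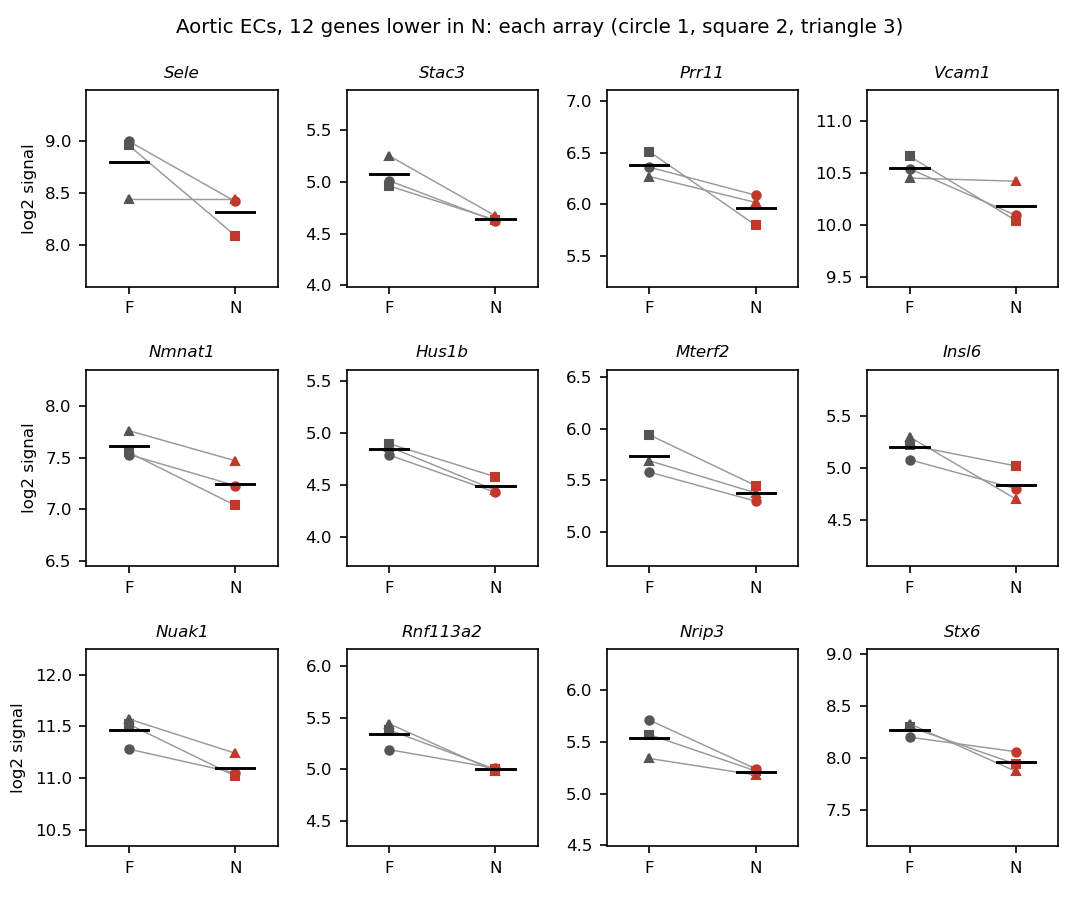
Log2 signal of each aortic array (vertical axis, the same span as for the genes higher in N) in F and N for the 12 named genes lower in N. Points are arrays, grey lines join the same replicate number and black bars are group means, and the gaps between groups are smaller than for Sik1 or Tbc1d30.

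Glucocorticoid-responsive genes had the highest median of the 30 pathway lists. It was 0.16, with 21 of 24 differences above 0, against -0.00 over all members, and it was 0.17 in the DA. Of the 24 genes, 2 had an unadjusted p under 0.05, both higher in N, against 1.09% of all probe sets, and 7 with the block, against 2.88%. None was called, and 6 were separated upward and 0 downward, against 2.93% and 1.46%. Zbtb16, a zinc finger transcription factor that glucocorticoids induce strongly, had signals of 7.50, 7.92 and 7.49 in F and 8.23, 8.26 and 7.94 in N, a difference of 0.51 (95% interval 0.03 to 0.99). The second F array lay just below the N array of replicate 3. Lcn2, the iron-carrier binding protein lipocalin 2, stood at 0.28 (95% interval 0.02 to 0.55). Ddit4, an inhibitor of mTORC1, stood at 0.37 with overlap (95% interval -0.04 to 0.78). Separated without reaching that p were Fkbp5, a co-chaperone of the receptor, at 0.23, Klf9 at 0.25, the metallothionein Mt2A at 0.18 (0.07 with overlap on a second probe set) and the kinase Sgk1 at 0.09. Tsc22d3, also known as GILZ, stood at 0.28 (95% interval -0.14 to 0.71) in the aorta.

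Clock and immediate early genes showed values in both directions. Nr1d1, the repressor REV-ERB alpha, had signals of 6.62, 6.70 and 6.72 in F and 6.96, 6.95 and 7.13 in N, a difference of 0.33 (95% interval 0.01 to 0.65). Cry1, a repressor of the clock, had 8.10, 8.20 and 8.04 in F and 7.85, 7.78 and 7.75 in N, a difference of -0.32 (95% interval -0.65 to 0.01). Neither group pair overlapped. Of 16 clock genes, 4 were separated upward and 1 downward, against 2.93% and 1.46% of all probe sets. Among 31 immediate early genes, Klf10, a transcription factor induced by TGF-beta, at 0.32 (95% interval 0.08 to 0.56), and Fosl2, a partner of Jun, at 0.35 (95% interval 0.03 to 0.66, with 0.35 on a second probe set), had an unadjusted p under 0.05. Both were higher in N, against 1.09% of all probe sets. The best known members stood near 0, with Fos at -0.09 (95% interval -0.49 to 0.31), Egr1 at -0.07 (-0.30 to 0.17) and Dusp1 at 0.02 (-0.25 to 0.29).

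Klf2, the flow-induced transcription factor of quiescent endothelium, had the largest downward difference of all members, although its groups met. Its signals were 10.50, 11.12 and 10.90 in F and 10.08, 10.33 and 10.50 in N. The lowest F array equalled the highest N array to the second decimal, and each N array was below the F array of its number. The difference was -0.53 (95% interval -0.95 to -0.12, adjusted p = 1, 0.872 with the block). Klf4, its close relative, stood at -0.11 (-0.48 to 0.25) on 1 probe set and at -0.20 on another, and Klf6 at -0.27 (95% interval -0.56 to 0.02), the latter with no overlap. Of 22 flow-responsive and endothelial transcription factors, 1, Klf2, had an unadjusted p under 0.05, against 0.289% of all probe sets lower in N. The median of 0.03 had the opposite sign to Klf2. S1pr1, a receptor of sphingosine 1-phosphate that takes part in flow sensing, had 11.24, 11.47 and 11.34 in F and 11.55, 11.66 and 11.67 in N, a difference of 0.28 (95% interval 0.04 to 0.52).

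Genes that control the tone of the vessel had differences near 0 for the main enzymes. Nos3, the endothelial nitric oxide synthase, stood at 0.00 (95% interval -0.30 to 0.31), Ptgs1 at -0.02 (-0.25 to 0.21) and Ptgs2 at -0.11 (-0.36 to 0.13), both cyclooxygenases, and Ace, the angiotensin-converting enzyme, at 0.01 (-0.21 to 0.23). Edn1, the endothelin precursor, had signals of 11.79, 11.91 and 11.81 in F and 11.56, 11.73 and 11.68 in N. These groups did not overlap, and the difference of -0.18 (-0.48 to 0.12) did not pass the unadjusted threshold. Ramp3, a partner of the calcitonin receptor-like receptor, had signals of 5.46, 5.90 and 5.02 in F and 5.91, 5.99 and 6.03 in N. Its difference was 0.52 (95% interval 0.10 to 0.93), but 0.29 without the F array of replicate 3. Calcrl, the gene of that receptor, was separated downward at -0.14. Of 27 nitric oxide and cyclic GMP genes, 2 had an unadjusted p under 0.05, Nos2 and the phosphodiesterase Pde1c at 0.27. Both were higher in N, against 1.09% of all probe sets.

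The arterial connexins Gja4 and Gja5 were separated downward, and mechanical targets lay on both sides. Gja4, connexin 37, had signals of 11.26, 11.28 and 11.17 in F and 11.07, 10.89 and 10.93 in N, a difference of -0.28 (95% interval -0.53 to -0.02). Gja5, connexin 40, lay lower in N without overlap too, at -0.15 (-0.37 to 0.07). Of the Notch pathway, Nrarp, a feedback inhibitor, stood at 0.35 (95% interval 0.03 to 0.66) and Hey1, a target gene, at 0.21 (95% interval -0.04 to 0.47). Among 18 YAP and mechanical targets, Ajuba at -0.31 (95% interval -0.55 to -0.07), Amotl2 at -0.29 (95% interval -0.54 to -0.04) and Dlc1, at 0.27 (95% interval 0.04 to 0.50) had an unadjusted p under 0.05. They stand beside 1.38% of all probe sets with such a p in either direction. The median of that list was -0.01. Adamts9, a matrix protease, at 0.45 (95% interval 0.06 to 0.83), and Wnt2, at 0.36 (95% interval 0.05 to 0.67), had an unadjusted p under 0.05 in the matrix and the Wnt lists.

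Oxygen-related genes had few differences. Of 36 hypoxia and glycolysis genes, 0 had an unadjusted p under 0.05 without the block and 2 with it, both higher in N, against 2.88% of all probe sets. These were Ankrd37, a target of the hypoxia-inducible factor, at 0.37 (95% interval -0.15 to 0.88), or 0.17 without the F array of replicate 3 and 0.64 without that of replicate 1, and Ndrg1, a gene induced by hypoxia, at 0.25 (-0.09 to 0.59), or 0.14 without the F array of replicate 1. The groups of both overlapped. The median of the list was -0.00, and 18 genes were above and 18 below 0. Vegfa, the main growth factor of endothelium, stood at -0.01 (95% interval -0.32 to 0.30), the glucose transporter Slc2a1 at -0.01 (-0.27 to 0.24) and Epas1, the oxygen-labile factor HIF-2 alpha, at 0.06 (-0.19 to 0.31). Of 26 antioxidant genes, 0 had an unadjusted p under 0.05 in either fit, and Hmox1, heme oxygenase 1, stood at 0.03 (-0.35 to 0.41). In all, 11 of the 30 pathway lists had no gene with an unadjusted p under 0.05 without the block, and 3 of these, the antioxidant, the receptor and the endothelial junction lists, had none with it either. With the block, 3 of 22 interferon and antigen presentation genes had such a p, all higher in N, namely Ifit3, an interferon-induced antiviral protein, at 0.35, Irf7, a transcription factor of the interferon response, at 0.26, and Tap2, a peptide transporter, at 0.25. The VEGF list then had 2 genes higher and 1 lower. The fatty acid list and the TGF-beta and BMP list had 1 higher each, and the heat shock, endoplasmic reticulum stress and respiratory chain lists 1 lower each. Heat shock genes had the lowest median at -0.15, with 17 of 18 below 0 and 0 at an unadjusted p under 0.05 without the block, beside 0.05 in the DA. Hsph1, a chaperone, differed more between replicate numbers than between stages, with 9.86, 9.00 and 8.69 in F and 9.62, 8.71 and 8.56 in N.

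**Figure D4:**
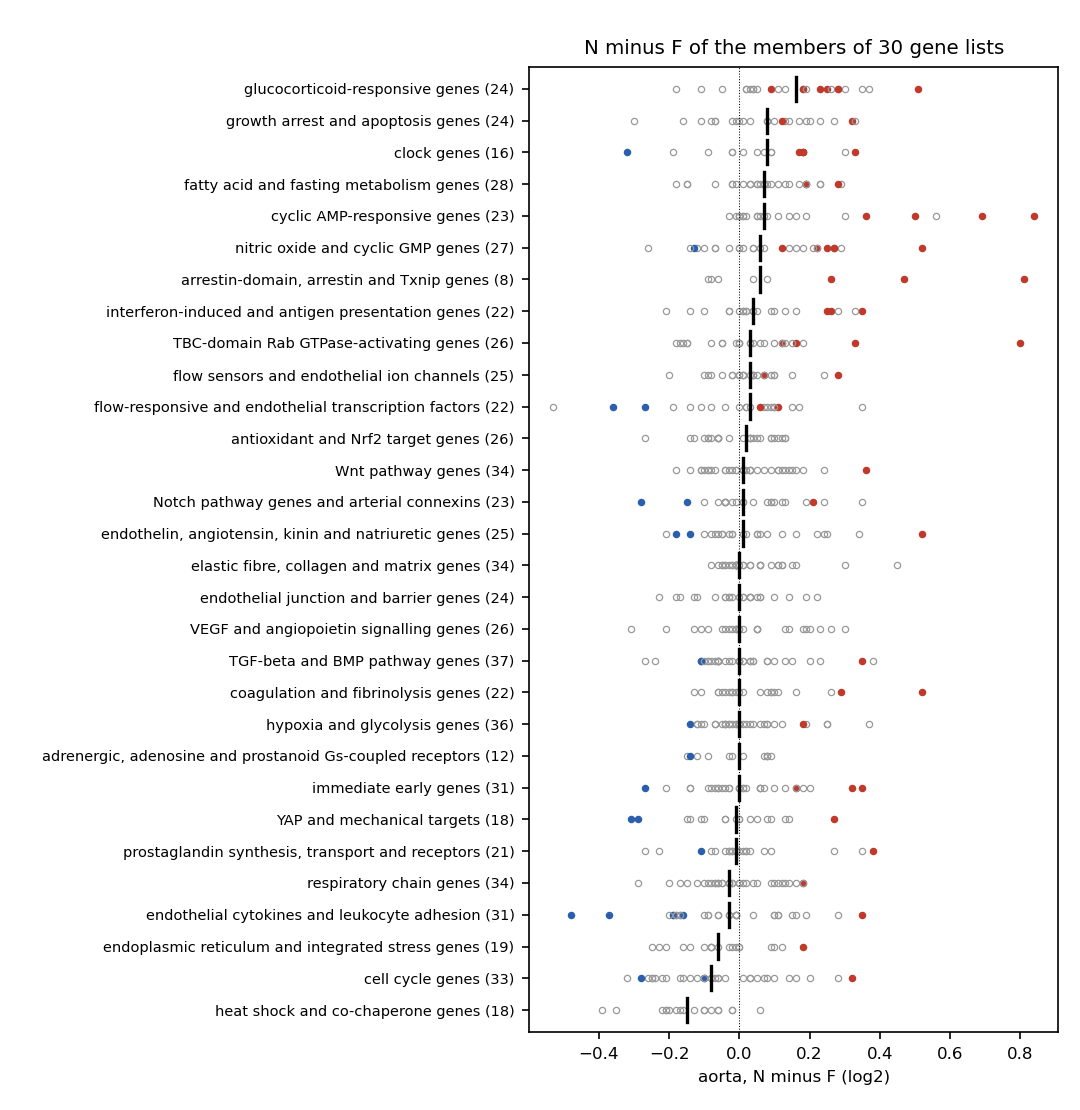
Aortic N minus F difference (log2, horizontal axis) of each tested gene in 30 pathway lists, with the number tested in brackets and the black bar at the list's median. Red points are genes whose 3 N arrays lie above the 3 F arrays, blue points those below, and open points overlap, and the cyclic AMP, arrestin and TBC lists have a few red points far to the right of medians between 0.03 and 0.07.

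Markers of the sorted cells were bright and overlapped between the stages. Pecam1, which encodes CD31, had signals of 12.28, 12.15 and 12.06 in F and 12.25, 12.22 and 12.04 in N, and Cdh5, VE-cadherin, stood at 0.05 (95% interval -0.19 to 0.28). Tek, the Tie2 receptor, stood at -0.04 (-0.34 to 0.25) and Kdr, a VEGF receptor, at 0.26 (-0.05 to 0.58). Over 17 endothelial markers the differences ran from -0.17 to 0.56, with a median of 0.00 and 0 separated in either direction. Their summed linear signal was 31600 to 34400 in F and 32700 to 33700 in N. Ptprc, which encodes CD45, did not reach the lys spike. Markers of other cells were measured on all arrays, with Acta2, smooth muscle actin, between 10.26 and 10.65 and Col1a1, a collagen chain of fibroblasts, between 11.41 and 11.59. Col1a1 thus lay above Cdh5, whose aortic signals ran from 11.01 to 11.19. Over 15 smooth muscle markers the summed linear signal was 9160 to 10100 in F and 9610 to 9910 in N, and over 11 fibroblast markers 16900 to 19400 and 17300 to 19300. Of 9 leukocyte markers that reached the spike the sums were 573 to 626 and 535 to 663, and of 7 erythroid markers 536 to 724 and 559 to 618. Of 11 marker lists, 0 had a gene with an unadjusted p under 0.05 without the block, and 7 had none in either fit. In the other lists Kdr, Nr2f2, Epb42 and Stmn2 had such a p with the block. All were higher in N, at 0.26, 0.35, 0.35 and 0.31, and only the groups of Stmn2, a neuronal marker, were separated. Venous and lymphatic markers had 9 of 9 differences above 0 (median 0.21), with overlapping groups in each and sums of 1080 to 2150 in F and 1220 to 2030 in N. In such bulk samples fewer cells of a type and less RNA per cell cannot be told apart.

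The DA served to ask where the aortic values were particular to the aorta. Limma called 0 members for the difference of N minus F between the vessels (0% of those tested, smallest adjusted p = 1), and 92 members had an unadjusted p under 0.05, against 0.931% of all probe sets tested. The 2 contrasts share no array, although same-number arrays of both vessels deviated together. In the DA, 12 of the 12 named upward genes had differences above 0 and 10 of the 12 named downward genes differences below 0, with 59.2% of all members above 0 in the DA. Of the 101 members higher in aortic N, 73.3% were above 0 in the DA, and of the 23 lower, 82.6% were below 0. The difference between the vessels was -0.09 (95% interval -0.50 to 0.31) for Sik1, -0.10 (-0.78 to 0.59) for Crem, -0.23 (-0.84 to 0.38) for Arrdc3, -0.34 (-0.74 to 0.06) for Tbc1d30 and -0.03 (-0.39 to 0.33) for Plat. Each of these intervals includes 0.

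Some aortic values stood apart from those of the DA, but 0 of these differences passed the adjusted test. Klf2 stood at 0.16 in the DA, with signals of 10.65, 10.46 and 10.25 in F and 10.35, 10.60 and 10.89 in N. The difference between the vessels was -0.70 (95% interval -1.29 to -0.10, adjusted p = 1). Nos2 and Or2h1 stood at 0.04 and 0.07 in the DA, with differences between the vessels of 0.48 (95% interval 0.01 to 0.95, adjusted p = 1) and 0.70 (95% interval 0.14 to 1.26, adjusted p = 1). Stac3 stood at 0.07 in the DA, a difference of -0.51 (95% interval -0.93 to -0.09, adjusted p = 1). Of the cyclic AMP-responsive genes, Nr4a2 stood at 0.06 in the aorta and at 0.76 in the DA. Its difference between the vessels was -0.70 (limma unadjusted p = 0.00164). Nr4a1 stood at 0.16 in the aorta and at 0.64 in the DA, a difference of -0.48 (limma unadjusted p = 0.0336). Hbb, a globin gene, stood at -0.10 (-0.89 to 0.70) in the aorta and at -1.54 in the DA, a difference between the vessels of 1.44 (95% interval 0.31 to 2.57, adjusted p = 1). Its DA signals were 9.80, 8.21 and 8.13 in F, with replicate 1 far above the others, and 7.49, 7.19 and 6.85 in N. The erythroid enzyme Alas2 stood at 0.02 in the aorta and -0.55 in the DA, a difference between the vessels of 0.57 (95% interval 0.19 to 0.96, adjusted p = 1).

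**Figure D5:**
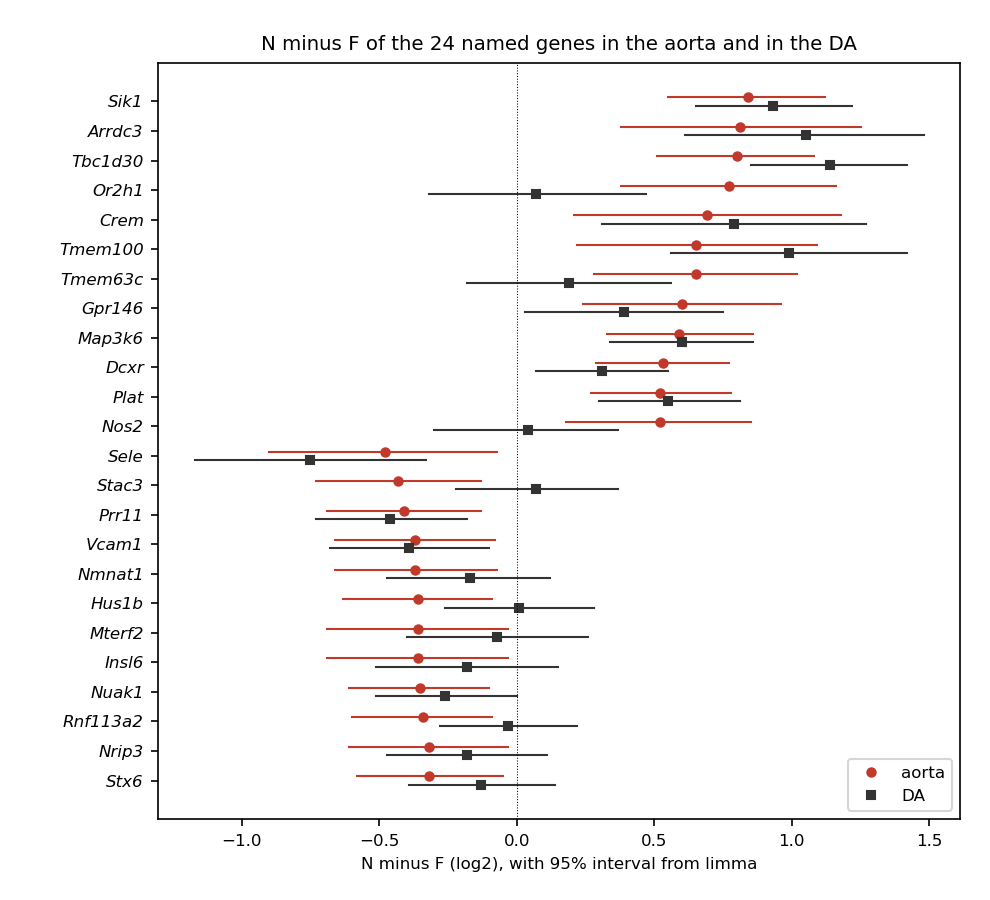
N minus F difference (log2, horizontal axis) of the 24 named genes in the aorta (red circles) and in the DA (black squares), with 95% intervals from limma. The genes were chosen on the aortic values, so the red intervals lie clear of 0 by construction, and the DA squares of Map3k6, Plat, Vcam1, Prr11, Sik1, Crem and Nuak1 lie about 0.10 or less from the aortic circles while those of Or2h1, Nos2, Stac3, Hus1b, Mterf2 and Rnf113a2 lie near 0.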

How the data were processed

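RNA of sorted ECs was measured on 12 Rat Gene 1.0 ST arrays, 1 per pool. Per the labels, the deposited values are log2 signals, made by the authors from the scans; the sources used here do not name their background correction or normalization, and no scan was analysed. Gene symbols came from the platform annotation, and 52 names from the gene lists of the study. N minus F was tested with limma 3.58.1 (R 4.3.3) in 1 fit of the 4 groups without a block, with Benjamini-Hochberg adjustment over 18690 probe sets at a threshold of 0.05, and N minus F was also compared between aorta and DA. The script was tested on simulated data. The number of arrays limits the precision, and the median standard error was 0.17 (0.12 with the block).

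The labels give the groups shared replicate numbers. Same-number aortic arrays of F and N deviated together from their group means (r across probe sets 0.80, 0.10 and 0.63, each over 0.1 before rounding), against -0.72 to 0.37 for different numbers, so the numbers were taken to pair the arrays. The labels do not say what a number stands for.

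Members and gene lists were chosen with earlier results of these data known. The genes named are members called with or without the block, the 12 largest differences in each direction with an unadjusted p under 0.05 and separated groups, up to 3 genes per list with the smallest p where it was under 0.05 with or without the block, and defining markers. Genes named otherwise, among them those given for a difference near 0, were chosen after their values were seen. Alternatives were the block, the 6 aortic arrays alone, the t-test of the study's methods, 2 other scalings, 2 other filters, a trended robust variance, array weights and leaving out arrays. Promoters came from RefSeq (GRCr8).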

Additional observations from a re-analysis of the deposited data

Results flagged for a closer look

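Ptgds, prostaglandin D2 synthase, had N minus F differences of opposite sign in the vessels. Its log2 signals in the aorta were 4.52, 4.60 and 4.11 in F and 4.67, 4.82 and 4.89 in N, a difference of 0.38, and in the DA 4.78, 5.18 and 4.79 in F and 4.24, 4.45 and 4.33 in N, a difference of -0.57. The groups did not overlap in either vessel. The difference between the vessels was 0.95 (95% interval 0.48 to 1.43, limma adjusted p = 1, 0.999 with the block). The signals are dim, and 2 of the 6 aortic arrays had Ptgds below their own lys signal.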

How the results depend on the processing

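No call was made without the block under any scaling, filter, variance model or left-out array run. The block called 3 probe sets, array weights called 3 (Arrdc3, Sik1 and Tbc1d30), and the methods' t-test with a fold of at least 2 gave 1. With the replicate number paired as a block, 822 probe sets had an unadjusted p under 0.05 against 257 without it, and 1027 with the 6 aortic arrays alone. Leaving out replicate number 1, 2 or 3 under the block gave 799, 869 and 732, and no call. The count was 399 with no filter, 143 with probe sets above the lys spike on all 12 arrays, 1422 with array weights, and 168 (without aorta F replicate 3) to 426 (without aorta F replicate 1) with 1 array left out. Separated members higher in N numbered 197 under the strict filter, which tests fewer probe sets, and those lower in N 292 after median centring. The cause of the other changes was not tested. The interaction between the vessels had 0 calls in every alternative. In the aorta the block altered no call other than those of Arrdc3, Tbc1d30 and 1 unnamed probe set, and in the DA, shown here for comparison, it took the calls from 1 to 10.

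The differences of Arrdc3 ran from 0.68 to 0.98 and those of Tbc1d30 from 0.74 to 0.85 over 25 alternatives, with adjusted p of 0.0341 to 1 and 0.0175 to 1. Sik1 ran from 0.80 to 0.87 (0.0289 to 1). None of the 24 genes named for size reversed. Some differences moved by over 1.5 times with 1 array left out. Without aorta F replicate 3, Kdr stood at 0.14, Tlr4 at 0.19 and Ptgds at 0.23, and without aorta F replicate 1, Nrarp stood at 0.22 and Wnt2 at 0.23. Marker differences near 0 changed sign. Median centring gave -0.02 for Pecam1 and -0.00 for Alas2, and array weights 0.01 for Tek, -0.03 for Col1a1 and -0.04 for Alas2. The block without replicate 2 gave -0.02 for Pecam1, -0.06 for Acta2, 0.01 for Dcn and 0.03 for Hbb, without replicate 1 -0.01 for Col1a1, and without replicate 3 -0.11 for Alas2. Leaving out 1 array gave -0.04 to 0.07 for Pecam1, -0.11 to 0.04 for Tek, -0.04 to 0.14 for Acta2, -0.20 to 0.00 for Myh11, -0.02 to 0.07 for Col1a1, -0.15 to 0.09 for Dcn, -0.22 to 0.10 for Hbb and -0.06 to 0.08 for Alas2.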

Other observations

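A probe set without a gene symbol was called with the block. Its log2 signals were 5.47, 4.63 and 4.77 in F and 6.53, 5.75 and 5.56 in N, a difference of 0.99 (limma adjusted p = 1 without and 0.0353 with the block). Another without a symbol had 7.41, 7.48 and 6.88 in F and 8.39, 7.90 and 8.57 in N, a difference of 1.03 (limma adjusted p = 1), and met the unadjusted threshold and fold of the study's methods.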
